A study of Mus musculus with 6 samples.

Results

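The surface proteins by which erythroid cells hold on to their niche and by which maturing erythroblasts are sorted into stages were followed here as mRNAs through DMSO-induced differentiation of MEL cells. The 10 genes encoding them are Cd44, Itga4, Itgb1, Itga2b, Cd47, Cd24a, Cd9, Cd81, Cd36 and Cd34, taken from the 23896 genes of the deposited count tables. Each gene is represented by the RefSeq transcript with the highest mean count. MEL cells are a mouse erythroleukemia line that is held at the proerythroblast stage and is released into terminal differentiation by DMSO. The 3 groups are untreated cells (day 0), cells after 2 days in 2% DMSO (day 2) and cells after 4 days in 2% DMSO (day 4), each with 2 libraries from cultures described as biological replicates, so the p-values measure the spread between these cultures. All 6 libraries come from this single line, which was grown in suspension without macrophages or stroma, and there is no culture kept for the same time without DMSO, so days of treatment and days in culture cannot be told apart.

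In bone marrow, erythroblasts mature in islands around a central macrophage, to which they attach through integrins, and they are anchored to matrix through CD44 and integrins. As they mature they shed most of this adhesion machinery, and the loss of CD44 is used to separate proerythroblasts from later stages by flow cytometry. CD47 acts differently, since it stays on the red cell, where it is held in the band 3 and Rh complex and signals to macrophages through SIRPα that the cell should not be engulfed.

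Each library held between 35294930 and 53899476 counts on transcripts. Of the 10 genes, 8 passed the low-count filter, and each of these had at least 556 counts in every library. Cd36 and Cd34 did not pass and are given as counts. Levels are in CPM, counts scaled to a common library size with TMM factors, tests are edgeR quasi-likelihood tests over all 6 libraries, and SE is the standard error of a log2 value. Positions are those of the gene in GRCm38. The cells carried erythroid markers on every day: the summed level of 11 such markers was 1324 and 1401 CPM at day 0, 4854 and 5732 CPM at day 2, and 18436 and 20677 CPM at day 4. Most of the day 4 sum came from Hba-a1 (mean 10628 CPM) and Hbb-bs (mean 5036 CPM). Of the 11 markers, 10 were called higher at day 4 than at day 0. The other, Klf1, was called lower (log2 fold change -0.54, edgeR adjusted p = 0.0188).

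By day 4, Cd44 and Itga4 had fallen, whereas Itgb1, Itga2b, Cd47, Cd24a, Cd9 and Cd81 had risen, by 1.76-fold for Itgb1 to 6.31-fold for Cd47. All 8 tested members were called for day 4 against day 0 6 being higher and 2 lower, at an edgeR adjusted p below 0.05, which called 71.8% of all 12381 tested genes (35.5% higher and 36.4% lower). Between day 0 and day 2, 7 of the 8 were called, 5 higher and 2 lower, against 62.5% of all tested genes (31.0% higher and 31.5% lower). Between day 2 and day 4, 5 of the 8 were called, 4 higher and 1 lower, against 30.3% of all tested genes (14.0% higher and 16.2% lower). A call by itself is therefore common in this time course, and what sets the members apart from each other is the direction, the size and the day. Over the 8 members, the median log2 fold change was 0.34 for the first step, 0.33 for the late step and 1.18 for day 4 against day 0, beside 0.0093, -0.0046 and -0.017 over all tested genes. Because these are bulk samples, fewer cells carrying an mRNA and less of it per cell cannot be told apart.

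**Figure D1:**
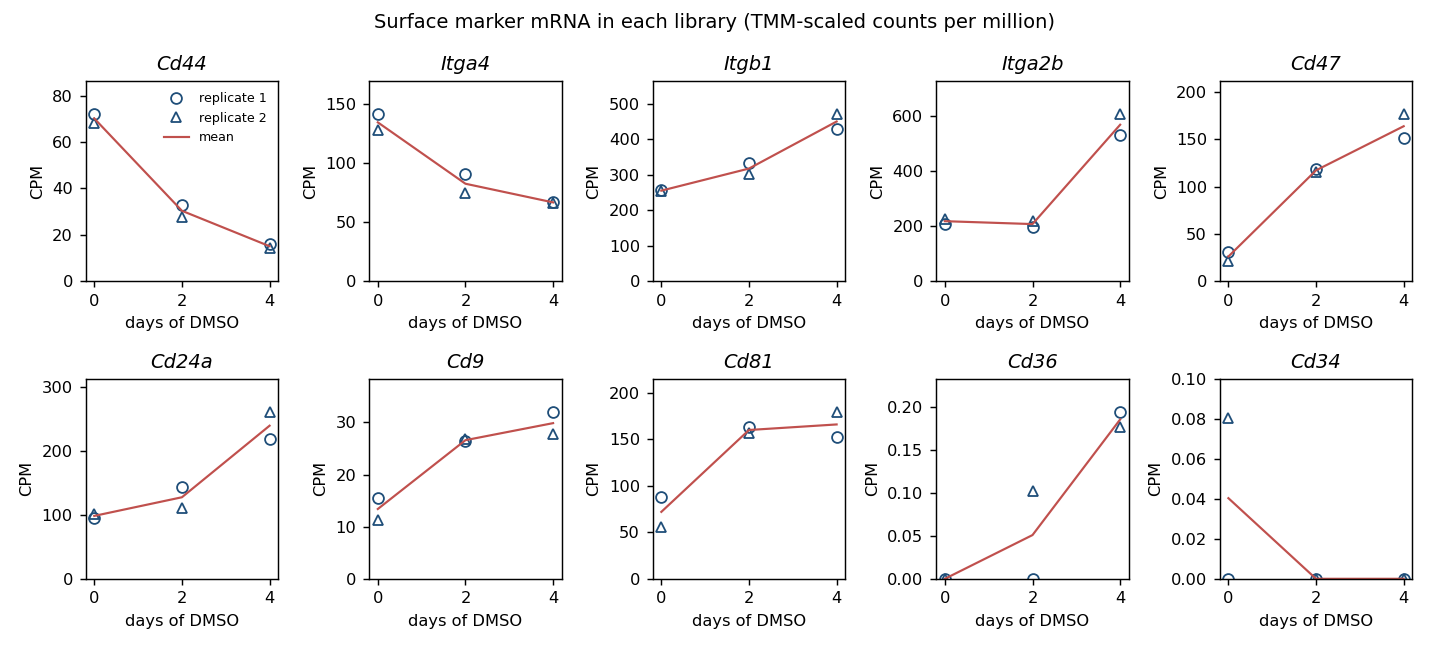
TMM-scaled counts (CPM, vertical axis, each panel with its own scale from 0) of the 10 genes against days of DMSO (horizontal axis); circles are replicate 1, triangles are replicate 2 and the line joins the means of the 2 libraries. Cd44 and Itga4 go down, Cd47, Cd9 and Cd81 make most of their rise by day 2, Itga2b is level until day 2, and Cd36 and Cd34 stay below 0.2 CPM in every library.

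Cd44, the receptor for hyaluronan whose loss marks erythroblast stages, showed the largest fall among the members. Its transcript NM_009851 (chr2:102811141-102901669, minus strand) had 72.0 and 68.4 CPM in the day 0 libraries, 32.8 and 27.9 CPM at day 2, and 16.0 and 14.1 CPM at day 4. The days did not overlap, and the level dropped again after day 2. The log2 fold change was -1.21 from day 0 to day 2 (SE 0.12, edgeR adjusted p = 1.16e-05) and -1.01 from day 2 to day 4 (SE 0.13, edgeR adjusted p = 0.000414). Over the 4 days Cd44 was 4.67-fold lower, a log2 fold change of -2.22 (SE 0.13, edgeR adjusted p = 1.22e-07). The late step differed from the first by 0.20 on the log2 scale (SE 0.22, edgeR adjusted p = 0.516).

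Cd44 is spliced into a standard form and into variant forms that carry extra exons in the extracellular stem. The count tables hold 6 RefSeq transcripts of the gene with nearly equal counts. How a read on several transcripts was counted is not given in the sources used here, and what follows assumes that it was added to each transcript it overlapped. NM_009851 contains 10 exons, 1245 coding bases in all, that NM_001039151 skips, while both share 1095 coding bases. The count on the longer transcript exceeded that on the shorter one by only 18 and 26 reads at day 0, 12 and 4 reads at day 2, and 4 and 5 reads at day 4, which is between 0.292% and 0.875% of its count. Under that assumption the reads of Cd44 lay almost entirely on sequence shared with the form that skips these exons, on all 3 days. This also takes the counted features to hold the exons of the matched GENCODE models, which was not tested. Those models run from 1412 to 5614 bases, yet the shortest, NM_001177787, had 10236 counts over the 6 libraries against 10289 for NM_009851. Esrp1 and Esrp2 encode splicing regulators that promote inclusion of the variable exons. Esrp1 had 4 counts over the 6 libraries, and Esrp2 had a mean of 0.690 CPM at day 0, 0.929 CPM at day 2 and 0.360 CPM at day 4. The junctions that tell these forms apart are shown for the sense strand of the GENCODE transcripts. The bases in lower case are the end of exon 5 (chr2:102853015-102853236), and the capitals are the start of the next exon, which is exon 16 (chr2:102828542-102828610) in the skipping form and exon 6 (chr2:102848657-102848782) in the form with the variable exons.
skipping: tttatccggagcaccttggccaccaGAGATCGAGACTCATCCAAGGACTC
first variable exon: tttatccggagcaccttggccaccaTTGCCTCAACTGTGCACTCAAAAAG

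A list of 16 genes held linkers of the CD44 tail to actin and enzymes that make or cut its ligand. It also held Spp1, Mmp14, Adam10, Esrp1, Esrp2, Hmmr, Lyve1 and Nf2, so its totals are not those of linkers and enzymes alone. Of the 12 that were tested, 3 were called higher and 6 lower at day 4 than at day 0, beside 35.5% and 36.4% of all tested genes. Their median log2 fold change was -0.24. Of the linkers of the ezrin, radixin and moesin family, Ezr fell by 0.77 on the log2 scale (edgeR adjusted p = 0.000298) and Msn by 2.32 (edgeR adjusted p = 1.62e-07). Rdx gave -0.31 (edgeR adjusted p = 0.0413), which was not called with total counts (-0.20, edgeR adjusted p = 0.175), in a fit of only those days (0.0849) or without day 0 replicate 2 (0.173), day 2 replicate 1 (0.0814), day 2 replicate 2 (0.0821), day 4 replicate 1 (0.125) or day 4 replicate 2 (0.137). Msn, which encodes moesin, went from 623 and 776 CPM at day 0 to 141 and 147 CPM at day 2 and to 130 and 150 CPM at day 4. After day 2, when Cd44 fell again, the log2 fold change of Msn was -0.042 (SE 0.14, edgeR adjusted p = 0.84). Among listed genes with a mean log2 CPM of at least 1, the largest rise was that of Adam10, a membrane protease that can cleave CD44, with a log2 fold change of 1.36 (SE 0.11, edgeR adjusted p = 1.26e-06). Has3, which makes hyaluronan and lay below that limit, had 4 counts in each day 0 library and 16 and 22 counts at day 4 (log2 fold change 2.36). Has2, of the same enzyme family, had 0 counts in every library. Spp1, another listed gene below the same limit, fell from 289 and 466 counts at day 0 to 15 and 18 counts at day 4. Its log2 fold change was -4.34 (edgeR adjusted p = 1.93e-07).

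Itga4 encodes the α4 chain of the integrin that binds VCAM-1 on macrophages and fibronectin in the matrix. Its only transcript, NM_010576 (chr2:79255426-79333114, plus strand), had 141 and 128 CPM at day 0, 90.4 and 74.3 CPM at day 2, and 67.1 and 66.1 CPM at day 4. The libraries of the 3 days did not overlap, and the drop was largest over the first 2 days. It fell by 0.71 on the log2 scale by day 2 (SE 0.12, edgeR adjusted p = 0.000384) and by 1.01 by day 4 (SE 0.12, edgeR adjusted p = 1.73e-05), which makes it 2.02-fold lower. The late step gave -0.31 (SE 0.12, edgeR adjusted p = 0.0717), and it passed the threshold with total counts in place of TMM (edgeR adjusted p = 0.0314), without the low-count filter (0.0442), in a fit of only those 2 days (0.0171) and without either day 0 library (0.0178 without replicate 1 and 0.0181 without replicate 2). The exons of Itga4 overlap those of Cerkl on the opposite strand over 1124 bases, and how the counting used strand is not given in the sources used here. Cerkl had 1350 counts over the 6 libraries and moved the other way, from a mean of 3.39 CPM at day 0 to 5.91 CPM at day 4.

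Itgb1 encodes the β1 chain, which pairs with α4 and with α5. In contrast to Itga4, it rose: NM_010578 (chr8:128685654-128733579, plus strand) had 256 and 254 CPM at day 0, 334 and 301 CPM at day 2, and 430 and 470 CPM at day 4. Every library of a later day was above every library of an earlier day. The log2 fold change was 0.32 for the first step (SE 0.12, edgeR adjusted p = 0.0337), 0.50 for the late step (SE 0.12, edgeR adjusted p = 0.0084) and 0.82 from day 0 to day 4 (SE 0.12, edgeR adjusted p = 7.34e-05). The call for the first step was lost with relative log expression (RLE) factors (edgeR adjusted p = 0.0504), in a fit of only those days (0.0547) and without day 2 replicate 1 (0.246), day 2 replicate 2 (0.0706), day 4 replicate 1 (0.0505) or day 4 replicate 2 (0.0527). The call for the late step was lost without day 2 replicate 1 (edgeR adjusted p = 0.0655), day 2 replicate 2 (0.118) or day 4 replicate 2 (0.0939).

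As Itga4 fell and Itgb1 rose, the ratio of these chains moved in one direction. Per kilobase of transcript, the Itga4 level was 0.215 and 0.196 times that of Itgb1 in the day 0 libraries, 0.106 and 0.0966 times at day 2, and 0.0610 and 0.0549 times at day 4. The ratio is formed within a library and does not depend on scaling between libraries.

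Itga2b encodes the αIIb chain, CD41, which is best known from platelets and megakaryocytes, where it pairs with β3, and which is also found on early hematopoietic progenitors. NM_010575 (chr11:102453297-102469883, minus strand) had 209 and 227 CPM at day 0, 196 and 219 CPM at day 2, and 531 and 606 CPM at day 4. The day 0 and day 2 libraries overlapped, and both day 4 libraries lay far above them. The first step gave a log2 fold change of -0.072 (SE 0.12, edgeR adjusted p = 0.63), which turns to 0.13 with total counts. The late step gave 1.46 (SE 0.13, edgeR adjusted p = 9.56e-05), a 2.74-fold rise, and day 4 against day 0 gave 1.38 (SE 0.13, edgeR adjusted p = 2.39e-06). Itga2b was the only tested member that was not called by day 2, and the member with the largest log2 fold change after day 2.

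The partner of αIIb did not follow it. Itgb3 had 135 and 121 counts at day 0, 14 and 27 counts at day 2, and 22 and 17 counts at day 4. Its log2 fold change from day 0 to day 4 was -2.56 (SE 0.32, edgeR adjusted p = 3.04e-05), and over the late step, when Itga2b rose, it was 0.11 (SE 0.40, edgeR adjusted p = 0.86). A list of 12 megakaryocyte and platelet markers that includes Itgb3 summed to 88.5 and 79.9 CPM at day 0, 37.5 and 40.0 CPM at day 2, and 36.5 and 33.6 CPM at day 4. Of its 9 tested genes, 3 were called higher and 6 lower at day 4 than at day 0, beside 35.5% and 36.4% of all tested genes. Among those with a mean log2 CPM of at least 1, Gp5 had the largest fall (log2 fold change -3.30) and Vwf the largest rise (3.75). Ppbp, below that limit, went from 13 and 18 counts at day 0 to 0 counts in both day 4 libraries, and Clec1b had 0 counts in every library. The summed level of this list was therefore lower at day 4 than at day 0 while Itga2b was higher, and between day 2 and day 4 it stayed between 33.6 and 40.0 CPM.

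Among the other integrin chains that were tested, falls were called more often than rises. Of 22 further α and β chains found in the tables, 12 were tested. All 12 were called for day 4 against day 0, 3 higher and 9 lower, against 71.8% of all tested genes (35.5% higher and 36.4% lower). Their median log2 fold change was -1.95. Itga9, Itgax and Itgb5 had at most 6 counts in the day 4 libraries together, so they passed the low-count filter through earlier days only. For such genes a call at day 4 could hardly be other than lower, so the tally and the median lean to falls. Itga1, Itga2, Itga3, Itga8, Itga11, Itgb6 and Itgb8 had 0 counts in every library. Among chains with a mean log2 CPM of at least 1, the largest fall was that of Itgal, which encodes the αL chain of the leukocyte integrin LFA-1, from 48.1 and 52.5 CPM at day 0 to 6.93 and 8.57 CPM at day 4 (log2 fold change -2.69, SE 0.14, edgeR adjusted p = 5.91e-08). Itga5, the α5 chain of the fibronectin receptor, fell from a mean of 50.9 CPM at day 0 to 28.0 CPM at day 2 and 27.4 CPM at day 4. Its log2 fold change by day 4 was -0.90 (SE 0.11, edgeR adjusted p = 2.67e-05). Itgav, the αV chain, had the largest rise, from 12.7 and 12.5 CPM to 26.3 and 30.1 CPM (log2 fold change 1.16, SE 0.12, edgeR adjusted p = 7.36e-06). Itgb7, which encodes the other β chain that pairs with α4, rose from a mean of 7.27 CPM to 20.9 CPM at day 2 and stood at 14.4 CPM at day 4 (log2 fold change from day 0 to day 4 of 0.99, SE 0.17, edgeR adjusted p = 0.00029).

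**Figure D2:**
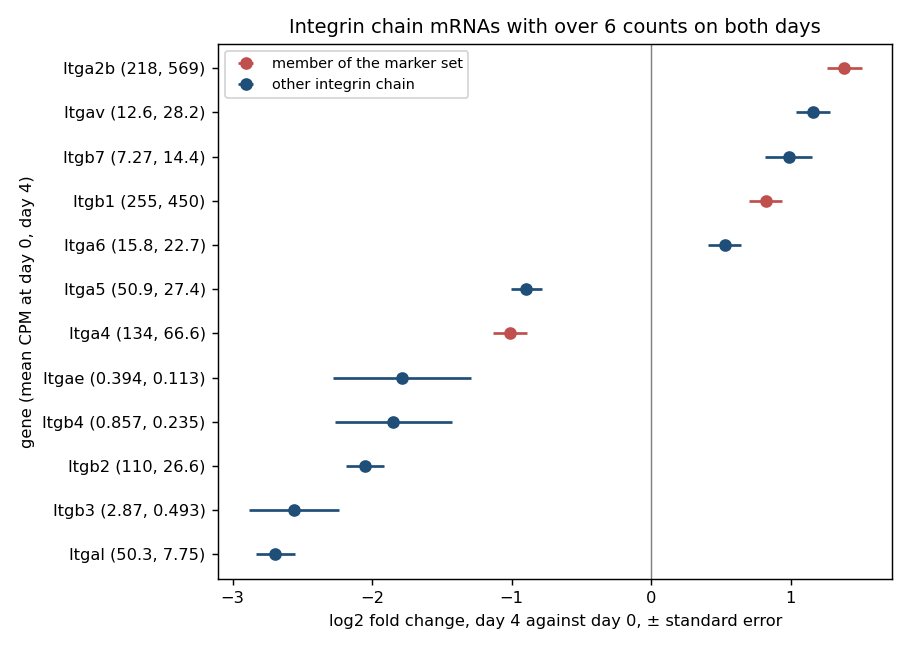
Log2 fold change of integrin chain mRNAs for day 4 against day 0 (horizontal axis, points with standard errors from edgeR), ordered by size, with the mean CPM at day 0 and day 4 in brackets beside each gene (vertical axis). Red points are Itga2b, Itgb1 and Itga4, blue points are other chains, and Itga9, Itgax and Itgb5, which had at most 6 counts in the day 4 libraries together, are not drawn; Itgb1, at 450 CPM, and Itga2b, at 569 CPM, rose, whereas Itgal and Itgb2 fell.

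Integrin tails are coupled to actin and switched on by talin and kindlin. In a list of 26 linkers and adaptors, 21 were tested, with a median log2 fold change of -0.067 for day 4 against day 0. Of these, 13 were called, 7 higher and 6 lower, against 71.8% of all tested genes (35.5% higher and 36.4% lower). Tln1, which encodes talin 1, fell from a mean of 1263 CPM at day 0 to 503 CPM at day 2 and was at 558 CPM at day 4 (log2 fold change from day 0 to day 4 of -1.18, SE 0.12, edgeR adjusted p = 5.96e-06). Fermt3, the kindlin of blood cells, fell from a mean of 288 CPM to 132 CPM at day 2 and rose again to 229 CPM at day 4. Its late step, when Itga2b rose, was 0.79 on the log2 scale (SE 0.11, edgeR adjusted p = 0.000741). Apbb1ip, whose product RIAM brings talin to the membrane, had the largest fall among the listed genes with a mean log2 CPM of at least 1 (log2 fold change -1.98), and Ptk2b, which encodes the adhesion kinase PYK2, the largest rise (2.11). Below that limit, Tgfb1i1 had 6 and 3 counts at day 0 and 52 and 86 counts at day 4 (log2 fold change 4.03).

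Cd47 had the largest change of the members. NM_010581 (chr16:49851328-49912503, plus strand) had 30.4 and 21.6 CPM at day 0, 119 and 116 CPM at day 2, and 151 and 177 CPM at day 4. The days did not overlap, and most of the rise was reached by day 2. The log2 fold change was 2.17 for the first step (SE 0.16, edgeR adjusted p = 1.24e-06), a 4.51-fold rise. Day 4 against day 0 gave 2.66 (SE 0.16, edgeR adjusted p = 1.48e-07). For the late step it was 0.48 (SE 0.15, edgeR adjusted p = 0.0307), a call that was lost with total counts (edgeR adjusted p = 0.0627) and without day 2 replicate 1 (0.176), day 2 replicate 2 (0.17) or day 4 replicate 2 (0.224).

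The genes that act with CD47 moved in the same direction for the most part. Of 13 listed partners, 10 were tested, with a median log2 fold change of 2.06 for day 4 against day 0. At day 4, 8 were called higher and 1 lower, beside 35.5% and 36.4% of all tested genes. Slc4a1, which encodes band 3, had 9 and 12 counts at day 0, 203 and 303 counts at day 2, and 1710 and 1513 counts at day 4. Its log2 fold change from day 0 to day 4 was 7.42 (SE 0.28, edgeR adjusted p = 9.69e-09). Epb42, which encodes protein 4.2 of the red cell membrane skeleton, went from a mean of 4.58 CPM to 49.7 CPM at day 2 and 78.5 CPM at day 4 (log2 fold change from day 0 to day 4 of 4.10, SE 0.13, edgeR adjusted p = 6.88e-09). Rhag, the Rh-associated glycoprotein, was already at 119 and 95.0 CPM at day 0, and its log2 fold change by day 4 was 0.13 (SE 0.13, edgeR adjusted p = 0.374), with 0.30 without day 0 replicate 1 (edgeR adjusted p = 0.0292), -0.034 without day 0 replicate 2 (0.801) and -0.0003 without day 4 replicate 2 (0.999). Icam4, an erythroid adhesion molecule that binds integrins of the macrophage, was the member of the list that fell, by 0.63 on the log2 scale (SE 0.12, edgeR adjusted p = 0.000535). On the side of the receptors, Sirpa and Thbs1 had 0 counts in every library.

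Set against Cd44 within the same library, Cd47 changed rank. Per kilobase, the Cd47 level was 0.452 and 0.337 times that of Cd44 at day 0, 3.86 and 4.45 times at day 2, and 10.1 and 13.4 times at day 4. The length used for Cd44 is that of a transcript with the variable exons, and without them (4369 in place of 5614 bases) the ratios were 0.352 and 0.263 at day 0, at most 3.46 at day 2, and 7.88 and 10.4 at day 4. Over the 6 Cd44 transcripts, each with its own count and model length (1412 to 5614 bases), Cd47 was below Cd44 at day 0 and above it at day 4. At day 2 the ratios with the shortest model, NM_001177787, were 0.977 and 1.12, so the rank on that day depends on the length.

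**Figure D3:**
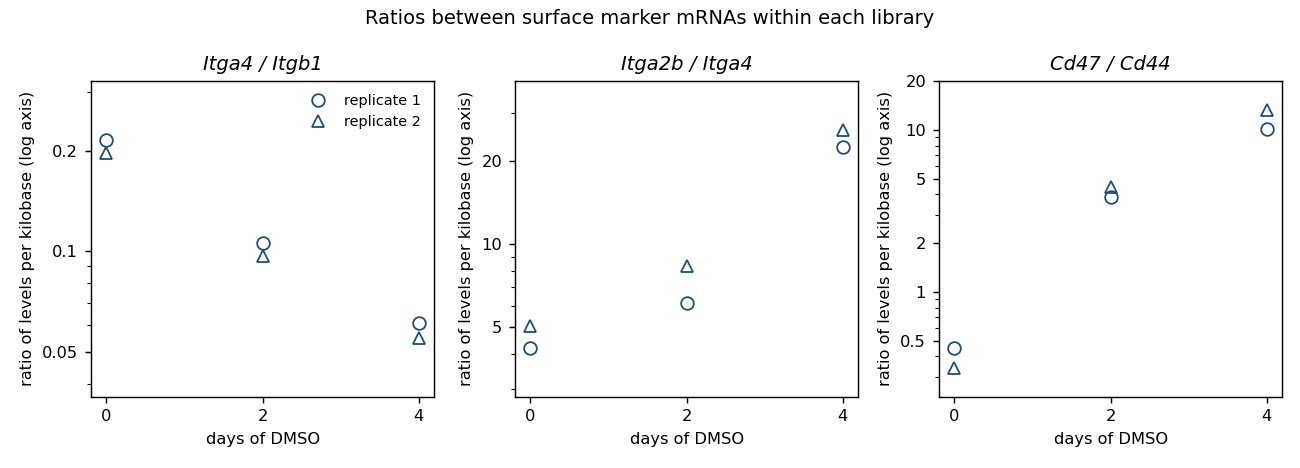
Ratio of the levels per kilobase of 2 genes within each library (vertical axes, log scale) against days of DMSO (horizontal axis), with circles for replicate 1 and triangles for replicate 2. Itga4 against Itgb1 goes down from 0.215 and 0.196 to 0.0610 and 0.0549, while Itga2b against Itga4 goes up from 4.20 and 5.06 to 22.5 and 26.1 and Cd47 against Cd44 from 0.452 and 0.337 to 10.1 and 13.4.

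Cd24a encodes heat stable antigen, a small glycoprotein anchored by lipid, which is used beside other markers to stage erythroid cells. NM_009846 (chr10:43579169-43584265) had 95.3 and 102 CPM at day 0, 144 and 111 CPM at day 2, and 218 and 261 CPM at day 4. The replicates of day 2 lay further apart than those of day 0, yet the days did not overlap. Its rise was 0.37 on the log2 scale by day 2 (SE 0.14, edgeR adjusted p = 0.0389), 0.91 for the late step (SE 0.14, edgeR adjusted p = 0.00127) and 1.28 by day 4 (SE 0.14, edgeR adjusted p = 1.2e-05). The call by day 2 was lost with RLE factors (edgeR adjusted p = 0.0536) and without day 0 replicate 1 (0.063) or day 2 replicate 1, whose omission gave 0.17 on the log2 scale (edgeR adjusted p = 0.414). Of the 25-base words of the transcript, 7.14% also occur in the pseudogene Gm6212, so a small part of its reads cannot be placed with certainty.

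Cd9 and Cd81 encode tetraspanins, membrane proteins that organise integrins and other receptors into clusters. Cd9 (NM_007657, chr6:125460266-125494760, minus strand) had 15.6 and 11.2 CPM at day 0, 26.4 and 26.8 CPM at day 2, and 32.0 and 27.7 CPM at day 4. Both later days were above day 0 in every library, and the late step was small against the spread. The log2 fold change was 0.99 for the first step (SE 0.16, edgeR adjusted p = 0.000263), 0.17 for the late step (SE 0.15, edgeR adjusted p = 0.441) and 1.16 by day 4 (SE 0.16, edgeR adjusted p = 5.36e-05). The pseudogene Cd9-ps shares 10.6% of the 25-base words of this transcript, and Gm26728 overlaps 218 of its bases on the opposite strand.

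Cd81 (NM_133655, chr7:143052750-143067930, plus strand), of which 30 bases overlap R74862 on the opposite strand, was the more abundant of the pair in every library. It had 87.7 and 56.3 CPM at day 0, 163 and 157 CPM at day 2, and 153 and 179 CPM at day 4. The day 0 replicates were far apart, but both lay below every later library, and the day 2 libraries fell within the range of day 4. The log2 fold change was 1.15 for the first step (SE 0.18, edgeR adjusted p = 0.000215), 0.053 for the late step (SE 0.18, edgeR adjusted p = 0.842), which turns to -0.032 with total counts, and 1.21 by day 4 (SE 0.18, edgeR adjusted p = 9.77e-05). The ratio of Cd81 to Cd9 per kilobase was 4.51 and 4.02 at day 0, 4.95 and 4.69 at day 2, and 3.83 and 5.18 at day 4, and the replicates of day 4 spanned every value of the earlier days.

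Among 24 other tetraspanins and their immunoglobulin-type partners, 16 were tested, with a median log2 fold change of 0.57 for day 4 against day 0. For that comparison 15 were called, 9 higher and 6 lower, against 71.8% of all tested genes (35.5% higher and 36.4% lower). Among those with a mean log2 CPM of at least 1, Tspan17 had the largest rise (log2 fold change 2.92, SE 0.15, edgeR adjusted p = 6.77e-08) and Tspan15 the largest fall (-1.96, SE 0.17, edgeR adjusted p = 2e-06). Igsf8 and Ptgfrn encode the main immunoglobulin-type proteins bound directly by CD9 and CD81. Igsf8 fell from 49.0 and 50.3 CPM at day 0 to 26.2 and 27.0 CPM at day 2 and to 18.3 and 21.7 CPM at day 4, a log2 fold change of -1.31 for day 4 against day 0 (SE 0.12, edgeR adjusted p = 2.95e-06), and Ptgfrn had 0 counts in every library. Both tetraspanin mRNAs were thus higher at day 4 than at day 0, and that of this partner was lower.

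Cd36, a scavenger receptor that takes up fatty acids and marks human erythroid progenitors, was nearly silent. NM_007643 (chr5:17781690-17888959) had 0 and 0 counts at day 0, 0 and 5 counts at day 2, and 7 and 8 counts at day 4. The mean of day 4 (0.185 CPM) was 2.77 times a floor of 3 counts per library at day 0 (0.067 CPM). The counting error of the day 4 reads is left out of that value. Without the low-count filter the change was called (edgeR adjusted p = 0.0013). The highest level was 0.194 CPM, so these are single reads in a whole library, and the floor covers counting error only. A list of 12 macrophage markers, cells that carry CD36, summed to 6.52 and 6.55 CPM at day 0, 4.05 and 4.56 CPM at day 2, and 8.28 and 13.1 CPM at day 4. Siglec1, which encodes a sialic acid receptor of macrophages, supplied most of the day 4 sum, with 0.0735 and 0.0403 CPM at day 0 and 5.79 and 10.8 CPM at day 4, and without it the sums were 6.45 and 6.51 CPM at day 0 and 2.49 and 2.23 CPM at day 4. In that list C1qa, Mertk and Vsig4 had 0 counts in every library, 3 genes were tested, and 1 was higher and 1 lower at day 4 than at day 0. Whether these few counts came from other cells was not tested. Of 9 genes for other scavenger receptors and for fatty acid handling, 6 were tested, with a median log2 fold change of 0.57 for day 4 against day 0. At day 4, 4 were called higher and 2 lower, beside 35.5% and 36.4% of all tested genes. Slc27a4, a fatty acid transporter, rose most (log2 fold change 1.02, SE 0.14, edgeR adjusted p = 7.07e-05).

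Cd34, the sialomucin that marks hematopoietic stem and progenitor cells, had 4 counts in day 0 replicate 2 and 0 counts in each of the other 5 libraries (NM_133654, chr1:194938821-194961292). No change was detectable at this depth, as a floor of 3 counts per library allows up to 0.067 CPM. Among related sialomucins and an adaptor that binds CD34, 5 of 7 genes were tested, with a median log2 fold change of 0.42 for day 4 against day 0. All 5 were called, 3 higher and 2 lower, against 71.8% of all tested genes. Podxl, a member of the CD34 family, was abundant where Cd34 was not, with 58.6 and 58.0 CPM at day 0, 172 and 181 CPM at day 2, and 147 and 130 CPM at day 4. It rose by day 2 (log2 fold change 1.60, edgeR adjusted p = 8.36e-07) and then fell by 0.35 on the log2 scale (edgeR adjusted p = 0.0301), a call that was lost without day 2 replicate 1 (0.14), day 2 replicate 2 (0.185) or day 4 replicate 2 (0.257). Cd164, a sialomucin of progenitors, rose by 0.44 by day 4 (SE 0.11, edgeR adjusted p = 0.00385). Spn, the leukocyte sialomucin CD43, had the largest fall (log2 fold change -3.10, SE 0.15, edgeR adjusted p = 4.59e-08).

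The members also differed in when they moved. For 4 of the 8, the late step differed from the first step at an edgeR adjusted p below 0.05, against 30.0% of all tested genes. Both steps share the day 2 libraries. Itga2b moved later, with the late step 1.53 above the first on the log2 scale (SE 0.22, edgeR adjusted p = 0.000814). Cd47 moved earlier, with the late step lower than the first by 1.69 (log2 difference -1.69, SE 0.25, edgeR adjusted p = 0.000956). The tetraspanins likewise rose mainly by day 2, with log2 differences of -1.10 for Cd81 (SE 0.30, edgeR adjusted p = 0.0188) and -0.83 for Cd9 (SE 0.27, edgeR adjusted p = 0.037). The differences of Cd9 and Cd81 were not called without day 2 replicate 1 (edgeR adjusted p = 0.205 and 0.171) or day 2 replicate 2 (0.211 and 0.122), nor was that of Cd9 without day 4 replicate 2 (0.102) or that of Cd81 without day 4 replicate 1 (0.0564). For Cd44, Itga4, Itgb1 and Cd24a the test of the difference gave adjusted p between 0.127 and 0.516, which does not show that their steps were equal.

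**Figure D4:**
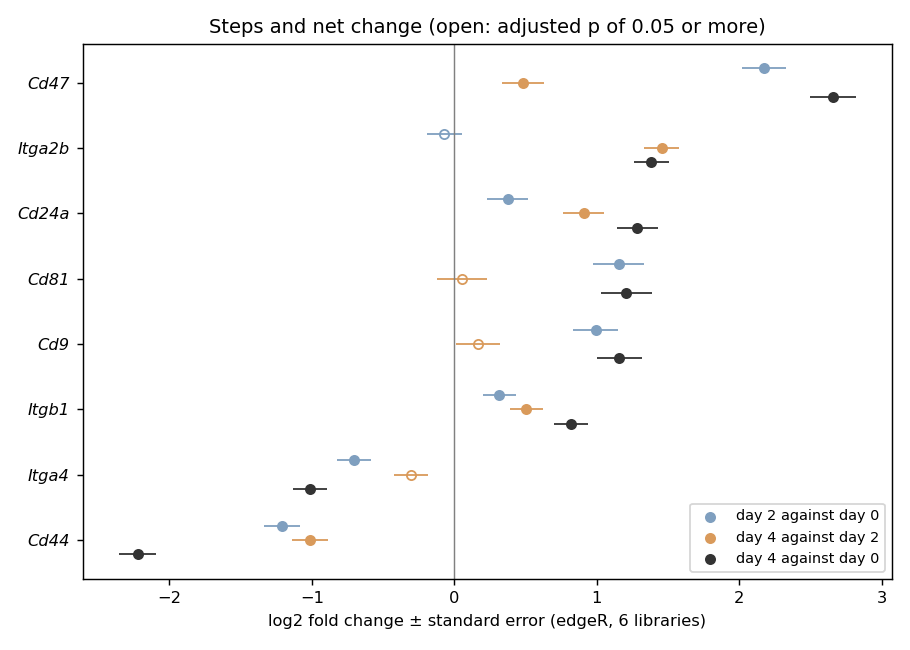
Log2 fold change (horizontal axis, points with standard errors from edgeR) of the 8 tested members (vertical axis) for day 2 against day 0, day 4 against day 2 and day 4 against day 0; open points have an adjusted p of 0.05 or more. The first step carries most of the change in Cd47, Cd81 and Cd9, the late step carries that of Itga2b, and Cd44 falls in both.

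Through these changes the order of the members by level was rebuilt. Per kilobase of transcript, Itgb1 came first at day 0 (mean 66.8 CPM per kilobase), followed by Itga2b (63.4), Cd24a (54.2) and Cd81 (47.0), where the replicates of Cd24a and Cd81 overlapped. A lower tier held Itga4 (13.8), Cd44 (12.5), Cd9 (10.9) and Cd47 (4.96), and the replicates of Cd44 and Cd9 overlapped. At day 2, Cd81 was highest (104 CPM per kilobase), the replicates of its successors Itgb1 (83.2), Cd24a (70.2) and Itga2b (60.3) overlapped from each to the next, and Cd47 (22.3) and Cd9 (21.7) had passed Itga4 (8.43) and Cd44 (5.41). By day 4, Itga2b was highest (165 CPM per kilobase), ahead of Cd24a (132), Itgb1 (118) and Cd81 (108), of which Itgb1 overlapped both of its neighbours. Cd47 (31.2), Cd9 (24.3), Itga4 (6.82) and Cd44 (2.68) followed without overlap. Cd47 thus moved from below Itga4 and Cd44 at day 0 to above them at day 4. With the length of Cd44 taken without the variable exons, its level was 16.5 and 15.7 CPM per kilobase at day 0, above Itga4, 7.52 and 6.38 at day 2 and 3.66 and 3.23 at day 4, below Itga4. With the model of the skipping transcript NM_001039151 (2848 bases), it was 25.1 and 23.8 at day 0, 11.4 and 9.75 at day 2, above Itga4, and 5.57 and 4.92 at day 4, below it. With the shortest model it was above Itga4 on every day, at 11.3 and 9.94 at day 4. The place of Cd44 in each day's order thus depends on the length used for it. The Cd44 transcripts had nearly equal counts despite these lengths, and whether the counted features have such lengths was not tested. The ratio of Itga2b to Itga4 per kilobase went from 4.20 and 5.06 at day 0 to 6.15 and 8.38 at day 2 and 22.5 and 26.1 at day 4.

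Other receptors used to stage erythroid cells were measured beside the members. Of 14 such genes, 10 were tested and all 10 were called for day 4 against day 0, 7 higher and 3 lower. Over all tested genes 71.8% were called (35.5% higher and 36.4% lower). The median log2 fold change of the 10 was 0.85. Kit, the receptor of early progenitors, had 23 and 24 counts at day 0, 2 and 2 counts at day 2, and 0 and 0 counts at day 4. Tfrc, the transferrin receptor CD71, was at 255 and 245 CPM at day 0, 254 and 256 CPM at day 2, and 550 and 614 CPM at day 4, a late rise with a log2 fold change of 1.19 for day 4 against day 2 (SE 0.12, edgeR adjusted p = 0.000144). Like Itga2b, Tfrc was not called for day 2 against day 0 (log2 fold change 0.027, edgeR adjusted p = 0.851). Among the listed genes with a mean log2 CPM of at least 1, which Kit did not reach, Fcgr3, an Fc receptor of myeloid progenitors, had the largest fall (log2 fold change -3.45 by day 4, edgeR adjusted p = 1.21e-07).

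Of the ligands of the α4 and α5 integrins, Vcam1 (VCAM-1, bound by α4) and Fn1 (fibronectin, bound by both) had 0 counts in every library. They belong to a list of 22 adhesion molecules of erythroblast islands and of cell contacts. Of these, 14 were tested, with a median log2 fold change of 0.58 for day 4 against day 0. In all, 9 were called, 4 higher and 5 lower, against 71.8% of all tested genes (35.5% higher and 36.4% lower). Icam2 had the largest fall (log2 fold change -3.25, SE 0.15, edgeR adjusted p = 3.23e-08), and F11r, which encodes the junctional adhesion molecule JAM-A, the largest rise (2.79, SE 0.13, edgeR adjusted p = 3.11e-08).

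Cell types that carry several of the members on their surface were also examined through marker lists. Beside the megakaryocyte and macrophage lists, 12 granulocyte and mast cell markers summed to between 18.7 and 21.9 CPM at day 0, 14.6 and 15.3 CPM at day 2, and 9.64 and 11.2 CPM at day 4, with S100a8, S100a9 and Tpsb2 at 0 counts. Of 7 tested genes none was called higher and 4 were called lower by day 4. These 4 (Ltf, Cpa3, Fcer1a and Ms4a2) had at least 49 counts in each day 0 library and at most 14 in any later library. They entered the test through day 0, so a call could hardly be other than lower. The 10 lymphocyte markers summed to 1.67 and 1.33 CPM at day 0, 1.34 and 1.49 CPM at day 2, and 0.554 and 0.663 CPM at day 4, with Cd8a, Ms4a1 and Pax5 at 0 counts, and of 2 tested genes Cd3g was higher and Cd79b lower by day 4. The 10 stromal and endothelial markers summed to 73.4 and 62.7 CPM at day 0, 11.8 and 12.3 CPM at day 2, and 6.10 and 4.22 CPM at day 4, with all 6 tested genes called lower. Thy1 supplied most of that sum, with a mean of 46.0 CPM at day 0, 2.17 CPM at day 2 and 0.886 CPM at day 4, and Col3a1 and Cdh5 had 0 counts. The sums of the granulocyte and mast cell list and of the stromal and endothelial list were lower on each later day, as Cd44 and Itga4 were, whereas the lymphocyte sums of day 0 and day 2 overlapped, and the part of these cell types in the falls of these members was not tested.

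The upstream sequences of the members were searched for the words bound by factors known in erythroid and megakaryocytic cells. RefSeq windows of 250 bases before the start (GRCm38.p6) were at hand for 9 of the 10 genes, all but Cd24a, and both strands were read. The start used for the Cd47 stretch, chr16:49855654, lies inside the gene interval given above. A window of Cd36 (chr5:17835847-17836146) likewise lies inside that of its gene, so neither is upstream of the whole interval. The GATA words AGATAA and TGATAA occurred in 16.6% of 32851 windows and in that of 1 member, Cd44. An ETS word, GAGGAA, occurred in 23.3% of windows and in those of Cd44, Itgb1 and Itga2b. The word GGGCGG, bound by SP and related factors, occurred in 32.7% of windows and in those of 6 members, and the CACCC-type word CCNCNCCC, which can overlap it on the other strand, in 45.9% of windows and in those of 6 members. Stretches are shown for the member with the largest fall, the member with the largest rise and the member that rose late, with matches to GATA, ETS and SP words in capitals. The Cd44 stretch lies at chr2:102901866-102901915 on the minus strand and covers bases -250 to -201, that of Cd47 at chr16:49855554-49855653 on the plus strand (-100 to -1) and that of Itga2b at chr11:102469914-102470023 on the minus strand (-140 to -31).
Cd44: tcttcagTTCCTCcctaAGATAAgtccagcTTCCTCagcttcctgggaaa
Cd47: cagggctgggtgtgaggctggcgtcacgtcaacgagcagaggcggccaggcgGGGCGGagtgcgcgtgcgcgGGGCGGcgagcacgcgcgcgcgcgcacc
Itga2b: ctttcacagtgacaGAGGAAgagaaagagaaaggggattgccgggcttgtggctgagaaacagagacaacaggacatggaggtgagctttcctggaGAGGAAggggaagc
The Cd44 stretch holds AGATAA flanked by a pair of TTCCTC words, the reverse complement of GAGGAA. The Cd47 stretch holds a pair of GGGCGG words and none of the GATA or ETS words, and the Itga2b stretch holds a pair of GAGGAA words. A match of letters is a description of the sequence and shows no binding.

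Finally, the genes whose course was most like those of the extreme members were found by the distance between log2 levels, centred per gene, over the 6 libraries, out of 12380 other tested genes. Cldn13, a claudin, lay nearest to Cd47 (distance 0.18), with means of 4.70 CPM at day 0, 19.8 CPM at day 2 and 29.7 CPM at day 4, followed by Reck (0.21). Top1mt lay nearest to Cd44 (distance 0.14), with means of 22.3, 10.2 and 4.91 CPM on the same days, followed by Nup37 (0.17) and Nkain1 (0.18).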

How the data were processed

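Poly(A)-selected, strand-specific mRNA libraries (TruSeq Stranded) were made from MEL cells at days 0, 2 and 4 of 2% DMSO, with 2 cultures per day. The labels give each library its day and its replicate number. After adapter removal (cutadapt) and alignment to mm10 (TopHat), the authors deposited raw counts per RefSeq transcript, not normalized and with 1 file per library. HTSeq and DESeq2 are named in the submitters' processing notes. The counting options, the use of strand and the annotation release are not given in the sources used here. No read is listed as ambiguous, and 5245 of 23218 transcripts with counts (22.6%) had the same counts as another transcript, so a read can count on several transcripts. Reads on no feature, 50.5% to 58.4% of a library, stayed out of library sizes and tests.

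Gene symbols were found for 32199 transcripts in RefSeq (GRCm38) and for 187 more in GENCODE, while 268 had none. Itga10 and Ahsp matched no transcript and were not analysed here. Transcript lengths per kilobase are those of the matched GENCODE models, and whether the counted features have these lengths was not tested.

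Counts were tested with edgeR 4.0.16 (R 4.3.3): TMM factors (0.921 to 1.07), a low-count filter (filterByExpr, which left 18351 transcripts), and a single quasi-likelihood model of the 6 libraries with a mean per day. A gene counted almost only on a single day can pass that filter through that day alone. The direction of its call is then largely set in advance, and the tallies of the lists hold such genes. The p-values were adjusted over all 18351 transcripts by the Benjamini-Hochberg method, with calls below 0.05, and gene counts use 1 transcript per gene. The difference between the steps is the log2 fold change of day 4 against day 2 minus that of day 2 against day 0. Standard errors were derived from the F statistic. Values per library are TMM-scaled CPM, and floors of 3 counts cover counting error only.

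The members and the lists were chosen with earlier results of these data known. Beside the members, the text names from each list the called genes that rose and fell most from day 0 to day 4 (mean log2 CPM of at least 1, days not overlapping), some partners set with the design, and genes at 0 counts. Some genes that the rule names are not reported here. Genes in marker lists and in the plot of integrin chains outside that rule were chosen after their values were seen. Alternatives were DESeq2 1.42.0, RLE factors, total counts, scaling without globin transcripts, no low-count filter, a fit of the compared days alone, a block for the replicate number, a log2 fold change of at least 1, 1 transcript per gene, the second transcript of Cd44 and leaving out each library.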

Additional observations from a re-analysis of the deposited data

Results flagged for a closer look

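In 4 members the late step differed from the first step, by the test of the difference between the steps in edgeR. Itga2b had a late step 1.53 higher than its first on the log2 scale (adjusted p = 0.000814). Cd47 (log2 difference -1.69, adjusted p = 0.000956), Cd81 (-1.10, adjusted p = 0.0188) and Cd9 (-0.83, adjusted p = 0.037) had a late step lower than the first. Over the 7 other settings that gave this difference, without those that leave out a library, the value lay between 1.24 and 1.56 for Itga2b, between -1.97 and -1.65 for Cd47, between -1.38 and -1.06 for Cd81 and between -1.10 and -0.79 for Cd9.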

How the results depend on the processing

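All 8 calls for day 4 against day 0 held under the alternatives, except that Itgb1 missed a minimum log2 fold change of 1. That minimum left 3 calls among the members in the first step and 2 in the late step. Over the 4 days it left 52 calls among partner genes, where 85 were called without it. The partner genes were 150, tested and untested ones together, so these counts give no share of tested genes. Total counts moved the median log2 fold change of all genes to 0.21, -0.09 and 0.10 in the first step, the late step and day 4 against day 0, and to -0.31 for the difference between the steps. With total counts the sign turned for Itga2b in the first step (0.13), Cd81 in the late step (-0.032), and the difference between the steps of Cd44 (-0.081) and Itgb1 (-0.093), none of which was called with TMM. With 1 library left out, the lone library of that day was assumed to vary like the other days. The sign then turned for Itga2b in the first step without day 2 replicate 1 (range -0.15 to 0.0083), Cd81 in the late step without day 4 replicate 2 (-0.071 to 0.16) and the difference of Cd44 without day 2 replicate 2 (-0.037 to 0.44). Calls among the members then ranged from 5 to 7 for the first step, 3 to 6 for the late step, 8 to 8 for day 4 against day 0 and 2 to 4 for the difference, and from 78 to 87 among partner genes. The 3 calls for the late step came without day 2 replicate 1, day 2 replicate 2 or day 4 replicate 2, and the 2 for the difference without either day 2 library. The cause was not tested. The labels number the cultures 1 and 2 on every day without saying that a number pairs them, and differences between replicates correlated across 18351 transcripts by 0.0316, 0.0451 and 0.0791 between days. With the replicate number as a block, 6, 5, 8 and 4 members were called in the first step, the late step, day 4 against day 0 and the difference, where 7, 5, 8 and 4 were called without it, and only Cd24a in the first step lost its call (0.37, edgeR adjusted p = 0.0546).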
